A study of Mus musculus with 2 samples.

Results

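Cycling blood endothelial cells (BECs) of mouse tumors were examined, that is, cells of the vessel lining caught while copying their DNA or dividing. Transcripts were counted by unique molecular identifiers (UMIs, each marking 1 captured transcript). A barcode was kept if 500 or more genes were seen in it and less than 10% of its UMIs were mitochondrial. A barcode was counted as a blood endothelial cell when it held at least 2 UMIs of Pecam1, Cdh5 and Egfl7 together and at most 1 UMI of Ptprc, Col1a2, Epcam, Mmrn1 and Notch3 together, genes of leukocytes, fibroblasts, epithelium, lymphatic vessels and mural cells. This is called the gate below. Cycling cells were those of the gate with at least 3 UMIs of Top2a and Mki67 together, and 1851 of the 17556 gate cells met this, out of 22700 barcodes in all. The cells were therefore chosen on measured values, and whatever follows is a description of them, with no test and no p-value.

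The data are 2 droplet-based single-cell RNA sequencing libraries, 1 per tumor model. In wild-type C57BL6 females, 6 weeks of age, 100000 tumor cells were implanted orthotopically, and tumors were digested 10 days later with collagenase at 500 U/mL for KPC, a pancreatic tumor line, and at 400 U/mL for PyMT, a mammary tumor line from mice carrying the polyoma middle T antigen. Suspensions were depleted of leukocytes, epithelial cells, red blood cells, podoplanin-bearing cells and dying cells with antibodies and Annexin V, and BECs were then sorted by flow cytometry. How many mice went into a library is not given in the sources used here, so each library is 1 sample, the libraries differ in organ as well as tumor line, and differences between them cannot be assigned to either. All intervals are at 95% and cover counting error only. They do not cover the spread between tumors, which was not measured. Intervals of gene levels and of their ratios rest on UMIs summed over cells, so they also do not cover the spread between cells of a library.

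Top2a encodes topoisomerase II alpha, which untangles DNA strands and is made mainly from S phase to mitosis, and Mki67 encodes the Ki-67 protein that coats mitotic chromosomes. Cell cycle genes are switched on in waves: E2F factors drive genes of DNA synthesis at the start of S phase, and the DREAM and MuvB complexes with B-Myb and FoxM1 drive genes of mitosis later. Endothelial cells of adult vessels rarely divide, whereas angiogenic sprouts of tumors grow by division of cells behind a leading tip cell, and arterial cells are known to leave the cycle as they mature.

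The promoters of the genes that define and lead the cycling cells show the letters through which these waves are thought to be set, and some are printed here for that reason. Each run is the 150 bases before the gene's start in the RefSeq table of GRCm38.p6, 5′ to 3′ on the gene's strand. Capitals mark 3 motifs found on either strand. These are CCAAT (or ATTGG), the site of the factor NF-Y; TTTGAA (or TTCAAA), the cell cycle genes homology region (CHR) bound by MuvB complexes; and TTTNGCGC (or GCGCNAAA), an E2F site. The windows lie at chr11:99024190-99024339 for Top2a, chr7:135716380-135716529 for Mki67, chr19:37376232-37376381 for Kif11, chr7:80294301-80294450 for Prc1, chr12:24708104-24708253 for Rrm2, chr4:126556830-126556979 for Clspn and chrX:93632156-93632305 for Pola1, with Top2a, Mki67 and Pola1 on the minus strand.
Top2a: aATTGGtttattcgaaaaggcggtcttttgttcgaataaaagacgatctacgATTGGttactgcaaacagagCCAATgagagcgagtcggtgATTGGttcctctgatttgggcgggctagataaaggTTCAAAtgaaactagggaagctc
Mki67: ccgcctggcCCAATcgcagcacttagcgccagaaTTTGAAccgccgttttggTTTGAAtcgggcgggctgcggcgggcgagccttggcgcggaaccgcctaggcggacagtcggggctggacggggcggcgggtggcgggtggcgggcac
Kif11: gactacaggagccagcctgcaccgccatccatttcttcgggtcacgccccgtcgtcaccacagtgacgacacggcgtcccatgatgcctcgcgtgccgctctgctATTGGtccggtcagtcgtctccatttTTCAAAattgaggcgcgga
Prc1: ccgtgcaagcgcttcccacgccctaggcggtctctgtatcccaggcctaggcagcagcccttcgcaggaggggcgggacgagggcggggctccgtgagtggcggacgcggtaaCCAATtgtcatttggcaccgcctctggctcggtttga
Rrm2: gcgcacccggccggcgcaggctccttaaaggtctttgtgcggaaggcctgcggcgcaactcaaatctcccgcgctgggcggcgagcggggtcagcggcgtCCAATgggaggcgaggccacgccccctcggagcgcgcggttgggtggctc
Clspn: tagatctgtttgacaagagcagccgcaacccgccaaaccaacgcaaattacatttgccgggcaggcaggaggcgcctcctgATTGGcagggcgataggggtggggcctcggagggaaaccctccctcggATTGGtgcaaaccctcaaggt
Pola1: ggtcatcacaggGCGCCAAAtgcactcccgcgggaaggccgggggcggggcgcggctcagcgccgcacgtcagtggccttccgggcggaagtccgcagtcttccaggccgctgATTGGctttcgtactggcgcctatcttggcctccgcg

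The Top2a window holds 4 CCAAT and 1 CHR match and that of Mki67 holds 1 and 2. Kif11 and Prc1 stand for genes of mitosis, and Rrm2, Clspn and Pola1 for genes of DNA synthesis, of which Pola1 was added after its match was seen, as an example of the E2F letters. The same windows of Nusap1 and Ccne1, which also lead their lists, hold no match of these letters. Over 300 bases around the start, CHR letters were present in 71.9% of 32 promoters of the G2 and M phase list (30 of 37 genes found in the table), in 12% of 25 promoters of the S phase list (22 of 30 genes) and in 17.9% of all 32851 promoters. E2F letters were present in 6.25%, 36.0% and 1.38% of them, and CCAAT in 75.0%, 64.0% and 37.4%. A match is a description of the letters, and no binding was measured here.

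In the KPC library, 685 of 7204 gate cells were cycling cells (9.51%, 95% Clopper-Pearson interval 8.84 to 10.2), and in the PyMT library 1166 of 10352 were (11.3%, 10.7 to 11.9). A further 482 and 1277 gate cells had 1 or 2 UMIs of both genes together, and 6037 and 7909 had 0. Depth sets part of this. The KPC library held 44441942 UMIs in 10236 barcodes and the PyMT library 55547926 in 12464, and the cycling cells were the deeper ones, with a median of 7157 UMIs in KPC and 7042.5 in PyMT against 2454 and 3596 in gate cells with 0. With each cell thinned to 2000 UMIs and shallower cells left out, 179 of 4626 KPC cells (3.87%, 3.33 to 4.47) and 255 of 9203 PyMT cells (2.77%, 2.45 to 3.13) still had 3 UMIs. The order of the libraries turned with thinning, so none is read from these shares.

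Both genes were seen together in most cycling cells, in 546 of 685 in KPC and 922 of 1166 in PyMT. Top2a without Mki67 was seen in 127 and 226 cells, and Mki67 without Top2a in 12 and 18. Top2a (ENSMUSG00000020914, chr11:98992943-99024189 of GRCm38, minus strand) stood at 487 CPM (summed UMIs scaled to a total of 1000000) in KPC and 512 in PyMT. Mki67 (ENSMUSG00000031004, chr7:135689784-135716361, minus strand) stood at 205 and 223. The threshold cuts through a continuum. The 167 KPC and 379 PyMT cells just below it, with 2 UMIs, held 4032 and 3959 CPM of the G2 and M phase list described below, and the 143 and 272 cells just inside it, with 3 UMIs, held 5051 and 5362.

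**Figure D1:**
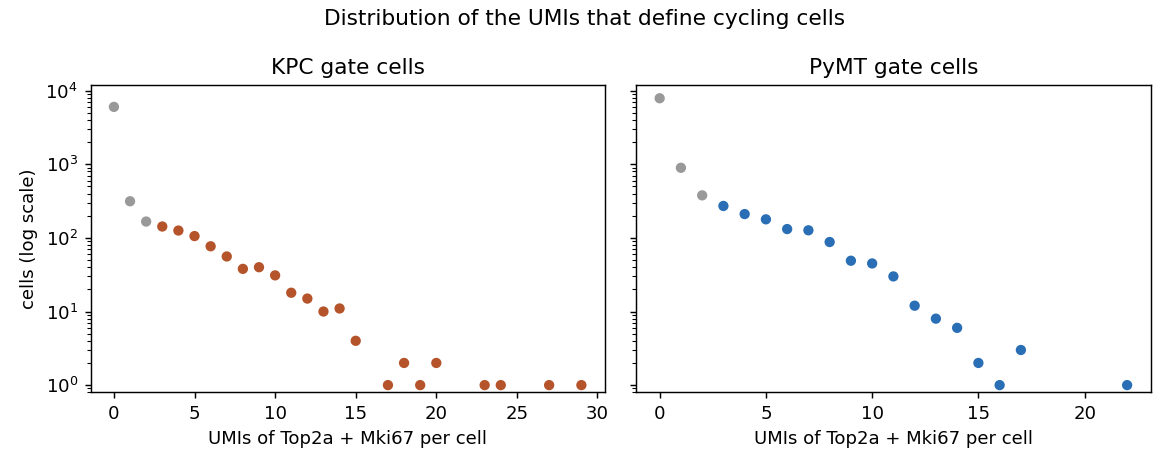
Number of gate cells (log scale) by UMIs of Top2a and Mki67 together, for KPC (left) and PyMT (right); grey points lie below the threshold of 3 UMIs and colored points are the cycling cells. Cell numbers decline without a gap at the threshold, from 167 to 143 cells in KPC and from 379 to 272 in PyMT between 2 and 3 UMIs.

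The endothelial label was checked first. In cycling cells Emcn (endomucin), the most abundant of 14 pan-endothelial genes in KPC, stood at 929.9 CPM in KPC and 797 in PyMT, and Esam, the most abundant in PyMT, at 804 and 966. A minority of cells went against the label. In KPC, 65 of the 685 cycling cells (9.49%) held at least 5 UMIs of Krt8, Krt18 and Krt19, keratins of epithelium and of the tumor cells. These keratin-bearing cells had a median of 18545 UMIs, carried 19.7% of all UMIs of the cycling cells and held 4.91 pan-endothelial UMIs per 10000, against 79.3 in the other cycling cells. In PyMT there were 38 such cells (3.26%, 5.17% of UMIs, 18.9 against 66.1 per 10000). Leaving them out, a choice made after seeing the data, leaves 620 and 1128 cells, and values without them are given below wherever they change a reading.

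Genes of other cell types were also counted. Epithelial or tumor genes stood at 1883 CPM in KPC cycling cells and at 36.5 without the keratin-bearing cells, with Krt8 the most abundant, and at 86.8 and 9.02 CPM in PyMT, where Krt19 and Cdh1 were at 0. Lymphatic genes stood at 213 CPM in KPC and 225 in PyMT, mostly Ccl21a. They stood at 157 and 198 in the reference defined below, but at 376 and 405 in all gate cells with 0 UMIs of Top2a and Mki67. Clear lymphatic counts (at least 2 UMIs of Prox1 or 10 of Ccl21a) were carried by 16 and 29 cycling cells. Fibroblast genes stood at 26.5 and 29.8 CPM, led by Col3a1, and immune genes at 21.3 and 25.8, led by Fcer1g, with Cd3e at 0 in both libraries. Pericyte genes stood at 184 and 54.2 CPM. In KPC this was mainly Acta2, of whose 877 UMIs 501 lay in 1 cell. Of 170 barcode sequences found in both libraries, 0 were cycling cells.

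To describe the cycling state apart from depth, each cycling cell was paired with the gate cell of its own library with 0 UMIs of Top2a and Mki67 and the nearest total of UMIs, called the reference (median 7155 UMIs in KPC and 7043 in PyMT). The deepest cells could not be matched fully: the highest total was 39608 against 22893 in KPC and 27386 against 18915 in PyMT. The reference also held 60 keratin-bearing cells in KPC and 24 in PyMT. UMIs were summed over each side, and genes with at least 50 UMIs over both sides were compared by the log2 ratio of CPM. In KPC, 478 of 9714 genes (4.92%) were higher by a log2 ratio of at least 1 and 141 (1.45%) were lower. In PyMT, 488 of 9988 (4.89%) were higher and 102 (1.02%) lower. These shares are the background for the gene lists below. Other references shift the lower side. Against all cells with 0 UMIs, which are shallower, 6.86% of genes in KPC and 2.62% in PyMT were lower by 1, and with every cell thinned to 2000 UMIs 5.27% and 2.86% were. Against the depth-matched reference the median gene was at -0.03 in KPC and 0.00 in PyMT.

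What set the cycling cells apart upward was much alike in the 2 libraries, and what set them apart downward was less so. Of 9390 genes compared in both, 383 were at least 1 higher in both, which is 83.3% of the 460 higher in KPC and 84.7% of the 452 higher in PyMT among these genes, and 75 of the 383 are on the cell cycle lists. Lower in both were 28 genes, 25% of 112 in KPC and 41.2% of 68 in PyMT, and 3 genes passed 1 in opposite directions.

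**Figure D2:**
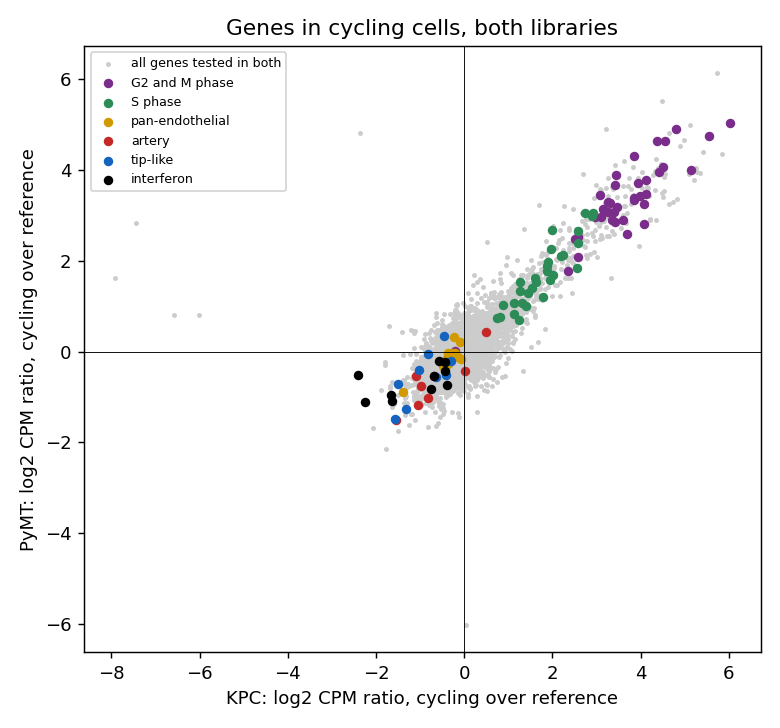
Log2 CPM ratio of cycling cells over the depth-matched reference in KPC (x axis) and PyMT (y axis), 1 point per gene compared in both libraries, with 6 gene lists in color. Cell cycle genes lie far up along the diagonal in both libraries, and artery, tip-like and interferon genes lie mostly below 0 in both.

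The cell cycle genes describe the rule more than a finding, since Top2a and Mki67 mark the same cells. Of 37 genes of G2 and M phase, 36 were higher by at least 1 in each library (median log2 ratio 3.61 in KPC and 3.29 in PyMT). Ube2c, the ubiquitin-conjugating enzyme of the anaphase-promoting complex, had the most UMIs and stood at 652 against 27.8 CPM in KPC and 699 against 28.2 in PyMT. Nusap1, which bundles spindle microtubules, was highest by ratio, with 145 against 2.22 CPM in KPC (log2 ratio 6.02, 95% interval 5.21 to 6.98) and 138 against 4.23 in PyMT (5.03, 4.55 to 5.55). The spindle motor Kif11 was at 4.81 and 4.89, the midzone protein Prc1 at 5.54 and 4.75, and Aurkb, the kinase of the chromosomal passenger complex, at 4.37 and 4.63. The exception was Pttg1 (securin), at 58.8 against 67.4 CPM in KPC (-0.20) and 62.7 against 62.1 in PyMT (0.01). Securin is a mitotic gene in other settings, but its counts in these libraries did not follow Top2a and Mki67.

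Genes of DNA synthesis were higher too, by less. Of 30 S phase genes, 27 in KPC and 25 in PyMT passed 1 (median 1.83 and 1.59), and every one of the 30 had an interval above 0 in both. Tyms, the thymidylate synthase, had the most UMIs, with 309 against 102 CPM in KPC and 269.6 against 88.0 in PyMT. The ratio was highest for Rrm2, a subunit of ribonucleotide reductase, in both libraries (2.92 and 3.05). Clspn, a replication checkpoint protein, came close (2.73 and 3.04). Replicative helicase genes were at the low end, with Mcm6 at 0.75 in both and Mcm2 at 0.81 and 0.77. Of 12 genes of nucleotide and one-carbon synthesis, 3 and 2 passed 1 (median 0.55 and 0.74). In PyMT 4 were past 1 against all cells with 0 UMIs and 5 with every cell thinned. Tk1, a thymidine kinase made in S phase, was highest at 3.47 and 3.16, and Mthfd2, of mitochondrial folate metabolism, was at 1.13 and 0.96.

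Among chromatin and tubulin genes 15 of 16 passed 1 in each library (median 2.31 and 1.91), the exception being Ran, the GTPase of nuclear transport, at 0.70 and 0.72. H2afz, a histone variant with the most UMIs of the list, was at 3547 against 1419 CPM in KPC and 3462 against 1576 in PyMT. The linker histone gene Hist1h1b stood at 119 against 2.22 CPM in KPC (5.74, 4.92 to 6.70) and 147 against 2.11 in PyMT (6.12, 5.46 to 6.88). Histone genes of the Hist1 clusters resemble each other, so reads may be split among them, and their transcripts mostly lack the poly(A) tail that these libraries are primed on. Their levels are therefore uncertain.

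The 12 genes highest by the weaker library were Hist1h1b, Nusap1, Esco2, Kif11, Prc1, Ccnf, Hist1h2ae, Ube2c, Fbxo5, Hist1h2ap, Aspm and Aurkb. Outside the lists, Esco2 (5.12 and 4.98) joins sister chromatids, Ccnf (4.99 and 4.65) and Fbxo5 (4.90 and 4.52) are regulators of protein destruction in the cycle, and Aspm (5.41 and 4.40) works at spindle poles.

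Genes that drive or restrain entry into the cycle were mixed. In KPC 13 had intervals above 0 and 2 below, and in PyMT 12 and 0. With all cells with 0 UMIs as reference 10 of 21 were higher and 2 lower by 1 in KPC, and 9 and 0 in PyMT. Of 20 regulators compared in KPC, 8 passed 1, and of 21 in PyMT, 9 did (median 0.53 and 0.42). The activator E2f1 was at 40.8 against 12 CPM in KPC (1.76) and 32.6 against 14.9 in PyMT (1.13). E2f8, an E2F repressor of late S phase, was at 3.23 and 2.96, Mybl2 (B-Myb) at 3.29 and 2.54, and Foxm1 at 2.78 and 3.02. The G1 cyclin Ccnd1, which had the most UMIs in KPC, was at 345 against 327 CPM (0.08, -0.01 to 0.17) and in PyMT at 251 against 227 (0.14, 0.05 to 0.23). Myc was at -0.08 and -0.13, with both intervals including 0. The genes below the reference in KPC were the cyclin Ccnd2 (-0.63, -0.85 to -0.41) and the CDK inhibitor Cdkn1c (-0.69, -1.25 to -0.15), which stood at -0.23 and -0.27 in PyMT.

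CDK inhibitors were not uniformly low in the cycling cells. Cdkn2c (p18) stood at 96.4 against 13.0 CPM in KPC (2.89, 2.54 to 3.27) and 76.6 against 12.7 in PyMT (2.60, 2.30 to 2.90). Cdkn2d (p19) stood at 166 against 32.0 (2.37, 2.14 to 2.61) and 141 against 22.2 (2.67, 2.45 to 2.90). Both encode inhibitors of CDK4 and CDK6, and both were higher along with the mitotic genes. Cdkn1b (p27) was at -0.08 and 0.13, with intervals that include 0, and Cdkn1a (p21) was at 0.59 (0.46 to 0.72) in KPC and 0.06 (-0.06 to 0.19) in PyMT. Of the 7 p53 targets compared in each library, 0 were higher by 1 (median 0.19 and -0.01), and 1 was lower in PyMT, Trp53inp1 at -1.12 (-2.02 to -0.27). In KPC 1 of 8 was lower by 1 and the median was -0.22 when all cells with 0 UMIs were the reference. Glycolysis genes were near the reference, with 0 past 1 in either direction of 11 in KPC and 10 in PyMT (median -0.06 and 0.09). With all cells with 0 UMIs as reference 1 of 11 passed 1 upward in KPC, 8 of 11 intervals lay above 0 and the median was 0.33, against 0.18 in PyMT. Gapdh was at 1619 against 1683 CPM in KPC and 1634 against 1545 in PyMT.

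Position within the cycle was described by UMIs of the S list and the G2 and M list in each cell after thinning to 2000 UMIs, which left out 13 cells in KPC and 15 in PyMT. G2 and M UMIs exceeded S UMIs in 502 of 672 KPC cells (74.7%, 71.2 to 77.9) and in 853 of 1151 PyMT cells (74.1%, 71.5 to 76.6). S UMIs exceeded in 149 (22.2%, 19.1 to 25.5) and 256 (22.2%, 19.9 to 24.8), and the remaining 21 and 42 were equal. These are ranges on a scale and not types: 124 and 205 cells lay within 2 UMIs of the line. The lists differ in size and abundance (37 and 30 genes), so the line of equal UMIs has no absolute meaning, and the part of the rule itself in these shares was not tested. Of cells with 0 UMIs of Top2a and Mki67, 236 of 3512 in KPC and 530 of 6827 in PyMT held at least 5 thinned UMIs of the S list.

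The leaning groups differed in the cyclins that mark each phase. Ccne2, a cyclin of the G1 to S transition that is on the S list, stood at 19 CPM in G2M-leaning and 98.7 in S-leaning cells of KPC and at 12.2 and 75.5 in PyMT. Ccnb1, the mitotic cyclin, stood at 183 and 32.4 in KPC and 231 and 44.0 in PyMT. Both genes are on the lists that made the split, so their difference was fixed by it and is given as a description only. Outside the lists, Gja4 (connexin 37) stood at 35 CPM in G2M-leaning and 29.1 in S-leaning cells of KPC (log2 ratio 0.26, -0.26 to 0.83) and 34.3 and 30.0 in PyMT (0.19, -0.23 to 0.64). The artery core described below was seen in 3.39% of G2M-leaning and 4.03% of S-leaning cells in KPC and in 3.17% and 3.52% in PyMT, with intervals that overlap.

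**Figure D3:**
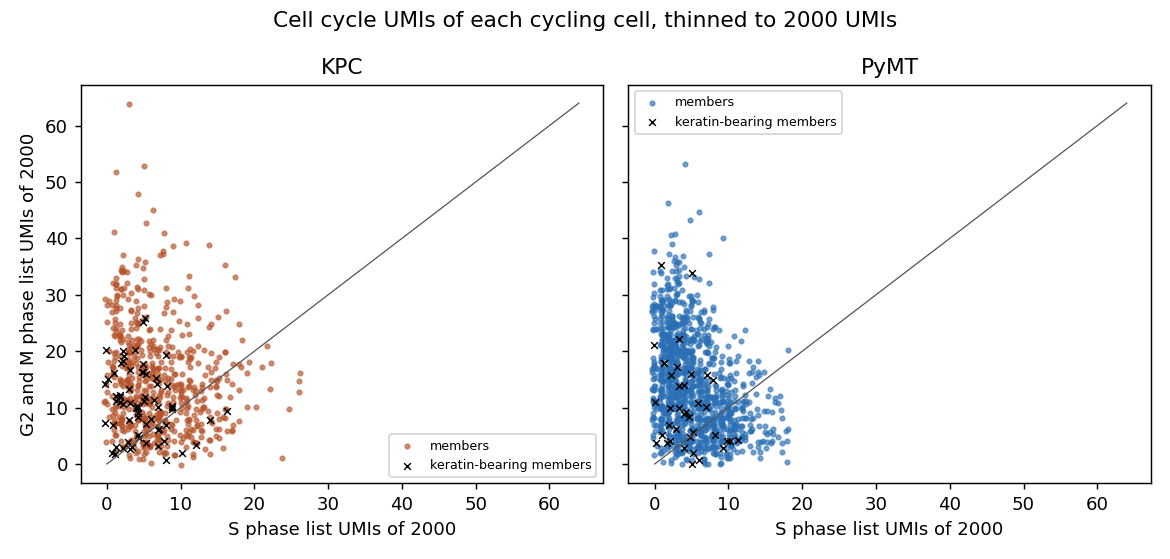
UMIs of the S phase list (x axis) and of the G2 and M phase list (y axis) in each cycling cell, thinned to 2000 UMIs, with small random offsets so that points do not hide each other; the line marks equal counts and crosses mark keratin-bearing cells. Most cells lie above the line, 502 of 672 in KPC and 853 of 1151 in PyMT.

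The next question was which markers of vessel segments the cycling cells carry. Pan-endothelial genes were mostly below the reference, by little for most. Intervals lay below 0 for 12 of 14 genes and above 0 for 0 in KPC, and for 8 and 2 of 14 in PyMT. Of 14 pan-endothelial genes, 1 in KPC and 0 in PyMT were lower by at least 1, and the medians were -0.34 and -0.15 (-0.26 and -0.13 without keratin-bearing cells). With all cells with 0 UMIs as reference 4 and 1 were lower by 1, with medians of -0.70 and -0.22. The VEGF receptor Kdr stood at 336 against 387 CPM in KPC (-0.21, -0.30 to -0.12) and at 299 against 305 in PyMT (-0.03, -0.10 to 0.05). Cldn5, the claudin of endothelial tight junctions, was the lowest of the list in both, at 107 against 283 CPM in KPC (-1.40, -1.54 to -1.27) and 244 against 451 in PyMT (-0.89, -0.96 to -0.81).

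Artery genes were below the reference in both libraries. Of the 11 genes on the list, 8 had enough UMIs to be compared in KPC and 3 of them were lower by at least 1, and 10 were compared in PyMT and 5 were lower, with medians of -0.90 and -0.88. Gja4, an arterial connexin (ENSMUSG00000050234, chr4:127311421-127314039, minus strand), was the third lowest of all genes by the weaker library. It stood at 33.1 CPM (202 UMIs) in cycling cells and 96.5 (521 UMIs) in the reference of KPC (log2 ratio -1.54, -1.79 to -1.31), and at 32.4 (292 UMIs) and 92.3 (786 UMIs) in PyMT (-1.51, -1.71 to -1.31). The Notch target Hey1 stood at 28.2 against 58.0 CPM in KPC (-1.04) and 36.4 against 81.9 in PyMT (-1.17). The ephrin Efnb2 was at -0.83 and -1.03, the factor Sox17 at -0.69 and -0.53, and Gja5 (connexin 40) at -1.87 in PyMT, with too few UMIs to be compared in KPC. Cxcl12, a chemokine of arterial endothelium, was at -1.10 and -0.53.

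An exception was Mgp, an inhibitor of calcification, at 27.5 against 19.6 CPM in KPC (0.49) and 124 against 91.7 in PyMT (0.43), and in PyMT its ratio was -0.21 without keratin-bearing cells. Without those cells 1 artery gene in KPC and 4 in PyMT passed 1, and the medians were -0.87 and -0.88, so the level of the list did not rest on them. With all cells with 0 UMIs as reference, 10 of 11 artery genes in KPC and 6 of 11 in PyMT were lower by 1 (9 and 5 of 10 with every cell thinned), and in KPC all 11 intervals lay below 0, Mgp included. Over the alternatives tried, the median ranged from -2.02 to -0.74 in KPC and from -1.23 to -0.45 in PyMT.

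Venule genes were slightly below the reference in KPC and near it in PyMT. Intervals lay below 0 for 6 of 11 genes and above 0 for 0 in KPC, and for 2 and 1 of 10 in PyMT. None of 11 in KPC and of 10 in PyMT passed 1 in either direction, where the background is 4.92% and 1.45% of genes in KPC and 4.89% and 1.02% in PyMT. The medians were -0.29 and 0.01, and 0.13 and 0.04 without keratin-bearing cells, so the sign in KPC depended on 65 cycling cells and the 60 in the reference. Against all cells with 0 UMIs, 3 venule genes in KPC and 2 in PyMT were lower by at least 1 (medians -0.88 and -0.45), and with every cell thinned, 3 and 1 were. Lrg1, which had the most UMIs, stood at 633 against 865 CPM in KPC (-0.45, -0.51 to -0.39) and 650.5 against 641 in PyMT (0.02, -0.03 to 0.08). Nr2f2, the venous factor COUP-TFII, stood at 46.2 against 40.8 in KPC (0.18, -0.08 to 0.44) and 39.8 against 34.3 in PyMT (0.21, -0.01 to 0.44). The list was not uniform. Vwf, the von Willebrand factor, was lower in both (-0.93 and -0.46), as was the chemokine receptor Ackr1 (-0.50 and -0.72), while Selp (P-selectin) was at -0.29 and 0.00.

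Capillary genes had medians slightly below the reference (-0.26 and -0.24), with 0 of the 10 compared (11 on the list) past 1 in each library. Intervals lay below 0 for 7 genes and above 0 for 1 in KPC. In PyMT they did so for 5 and 3, so the list was mixed there. Against all cells with 0 UMIs 6 of 10 in KPC and 2 of 11 in PyMT were lower by 1 (medians -1.18 and -0.66), and with every cell thinned 2 and 1 were, so the size of this difference depended on the reference. Gpihbp1, which anchors lipoprotein lipase on capillaries, stood at 475 against 654 CPM in KPC (-0.46) and 838 against 1212 in PyMT (-0.53). Rgcc, a regulator of the cell cycle with a role in vessels, was at -0.69 and -0.38, and Btnl9 at -0.90 and -0.89. Fabp4, a fatty acid binding protein with the most UMIs of the list, went in opposite directions against the depth-matched reference, with 3897 against 3326 CPM in KPC (0.23) and 1356 against 1785 in PyMT (-0.40). Against all cells with 0 UMIs, however, Fabp4 was lower in both (-0.51 and -0.81). Car4 (carbonic anhydrase 4) did so the other way round, at -0.60 in KPC and 0.40 in PyMT, and at -2.68 and 0.31 against all cells with 0 UMIs.

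Genes of tip-like cells, the migrating front of a sprout, were lower than in the reference, more so in KPC. Of 9 genes, 4 in KPC and 2 in PyMT were lower by at least 1 (medians -0.82 and -0.52), and 3 and 2 were against all cells with 0 UMIs or with every cell thinned. Pgf, a placental growth factor of the VEGF family, was the lowest in both, at 24.9 against 73.9 CPM in KPC (-1.57, -1.85 to -1.30) and 27.2 against 76.3 in PyMT (-1.49, -1.71 to -1.27). The chemokine receptor Cxcr4 was at -1.31 and -1.27, and the Notch ligand Dll4 at -0.65 and -0.57. Apln, the apelin peptide, differed between the libraries, with 298 against 414 CPM in KPC (-0.47, -0.56 to -0.38) and 307 against 243 in PyMT (0.34, 0.25 to 0.42). Esm1 (endocan) was at -1.03 in KPC and -0.41 in PyMT, and Angpt2 (angiopoietin 2) at -0.82 and -0.05.

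Genes of immature angiogenic capillary cells had medians of -0.41 and -0.34, with 0 of 7 lower by 1 in KPC (1 against all cells with 0 UMIs and 2 with every cell thinned) and 1 of 7 in PyMT. The gene in PyMT was Kcne3, a potassium channel subunit, at 63.7 against 140.0 CPM (-1.14, -1.28 to -0.99) in PyMT and 60.1 against 107 (-0.84, -1.03 to -0.65) in KPC. Intervals lay below 0 for 7 of 7 genes in KPC and 6 of 7 in PyMT. Aplnr, the apelin receptor, was slightly below the reference in KPC, with 330.4 against 394 CPM (-0.25). In PyMT it was close to it, with 349.8 against 343 (0.03).

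**Figure D4:**
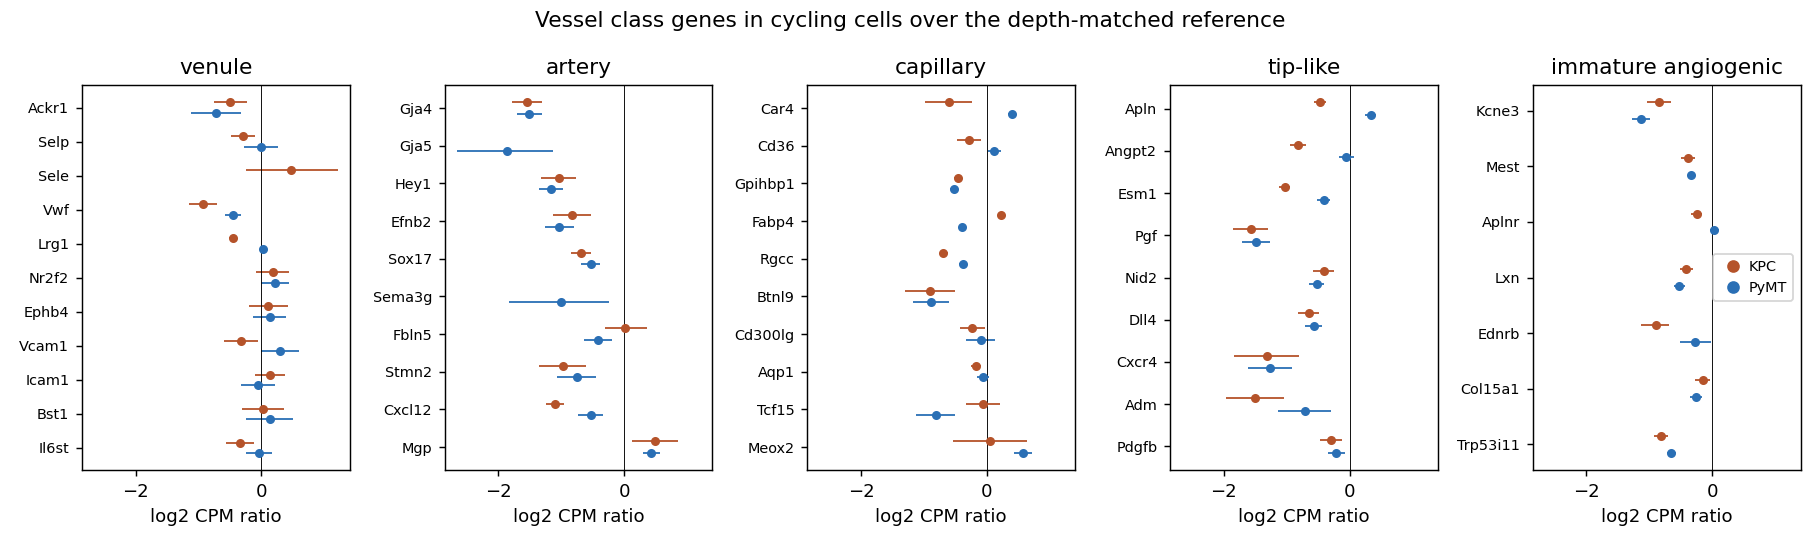
Log2 CPM ratio of cycling cells over the depth-matched reference for the genes of 5 vessel class lists with at least 50 UMIs, KPC in orange and PyMT in blue, with 95% counting intervals as bars. Artery genes other than Mgp and Fbln5 lie below 0 in both libraries where compared, and of the venule genes 6 of 11 in KPC have intervals below 0 and 0 above, against 2 and 1 of 10 in PyMT.

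The same question was put to single cells with 5 class cores, small sets of marker genes: Ackr1, Selp, Vwf and Lrg1 for venule, Gja4, Gja5, Hey1, Sema3g and Stmn2 for artery, Car4, Cd36, Gpihbp1 and Timp4 for capillary, Apln, Angpt2 and Esm1 for tip-like, and Kcne3, Mest and Aplnr for immature angiogenic. A cell was positive with at least 2 core UMIs of its 2000 and could be positive for several cores. After thinning, 672 KPC and 1151 PyMT cycling cells remained, with 3512 and 6827 cells with 0 UMIs (2525 and 1082 left out as too shallow), of which the depth-matched reference is a subset.

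The artery core separated cycling cells from both references in both libraries. In KPC it was seen in 3.42% of cycling cells (2.18 to 5.09), 9.08% of the depth-matched reference (7.01 to 11.5) and 12.6% of all cells with 0 UMIs (11.5 to 13.8). In PyMT the shares were 3.13% (2.20 to 4.3), 7.12% (5.71 to 8.77) and 9.20% (8.52 to 9.91). Free RNA in droplets can place UMIs in cells that do not make a transcript. In 394 thinned KPC barcodes of other lineages (no UMI of the 3 endothelial rule genes and at least 2 of Ptprc, Col1a2, Epcam and Notch3, median depth 4629.5 UMIs before thinning), the artery core was seen in 2.54% (1.22 to 4.62), an interval that overlaps that of KPC cycling cells. The other cores, which are commoner in gate cells, were seen in 0.254% to 1.78% of these barcodes, with intervals that overlap that of the artery core. The part of free RNA in these shares was not tested, nor was whether these cells make the core genes themselves. In PyMT only 17 such barcodes were left, of which 0 were positive for the artery, venule, tip-like and immature angiogenic cores, which allows a share of up to 19.5% (upper Clopper-Pearson limit), and 5.88% (0.149 to 28.7) for the capillary core, so the background is not known there for any core. Without thinning the artery core was seen in 11.1% and 10.9% of cycling cells.

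The other cores were seen in larger shares of cycling cells. The venule core was seen in 36.9% of cycling cells (33.2 to 40.7) and 45.7% of the depth-matched reference (41.9 to 49.5) in KPC, but in 42.4% (39.5 to 45.3) and 37.4% (34.6 to 40.3) in PyMT, the opposite order. Against all cells with 0 UMIs it was lower in cycling cells of both libraries, with 51.5% of those cells (49.8 to 53.1) in KPC and 46.8% (45.6 to 48.0) in PyMT, so the order in PyMT depended on the reference. The capillary core was seen in 31.7% against 36.5% in KPC, with intervals that overlap, and in 67.2% (64.4 to 70.0) against 76.6% (74.1 to 79.0) in PyMT, with 42.8% and 76.4% in all cells with 0 UMIs. The tip-like core was seen in 29.3% (25.9 to 32.9) against 38.8% (35.1 to 42.6) in KPC and 26.1% (23.5 to 28.7) against 23.0% (20.6 to 25.6) in PyMT, where the intervals overlap and the sign differs from that of the gene list. In all cells with 0 UMIs it was seen in 35% (33.4 to 36.6) and 21.3% (20.3 to 22.3), and in PyMT this interval lies below that of the cycling cells. The immature angiogenic core was seen in 32.9% (29.3 to 36.6) against 38.8% (35.1 to 42.6) in KPC, where the intervals overlap. In PyMT it was seen in 64.9% (62.1 to 67.7) against 74.8% (72.2 to 77.3). In all cells with 0 UMIs it was seen in 35.6% and 68.9%. Among cells with a single core, the capillary, tip-like and immature angiogenic cores were commoner in cycling cells than in all cells with 0 UMIs. This held in both libraries.

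**Figure D5:**
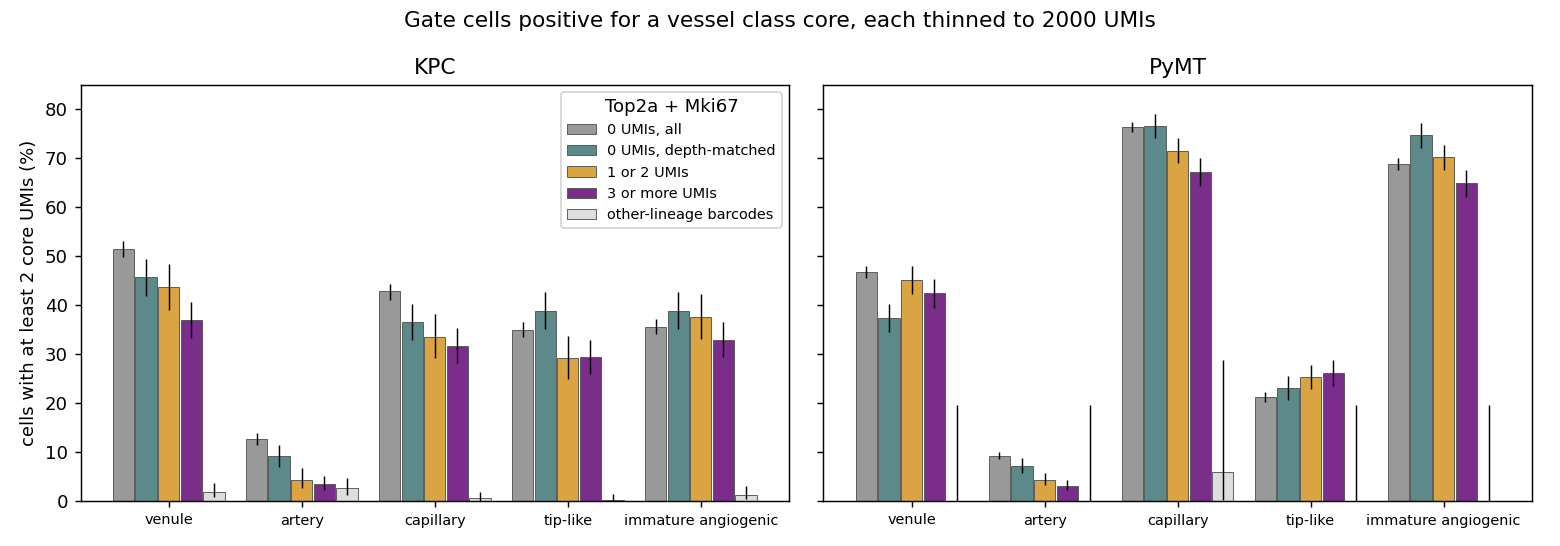
Percent of cells with at least 2 UMIs of each class core after thinning to 2000 UMIs, for all cells with 0 UMIs of Top2a and Mki67, the depth-matched subset of them, cells with 1 or 2 UMIs, cycling cells (3 or more) and other-lineage barcodes; bars start at 0 and error bars are Clopper-Pearson intervals. The artery core is the least common one in cycling cells of both libraries, at 3.42% in KPC and 3.13% in PyMT. It is also the least common one in all cells with 0 UMIs, at 12.6% and 9.20%, and in their depth-matched subset.

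Seen from the classes, cells with at least 2 thinned UMIs of Top2a and Mki67 were 7.83% (7.07 to 8.64) of all thinned gate cells in KPC and 6.43% (5.94 to 6.95) in PyMT. Among artery core cells they were 17 of 485 in KPC (3.51%, 2.05 to 5.55) and 15 of 717 in PyMT (2.09%, 1.18 to 3.43), below the interval of all gate cells in each library. Venule core cells were at 6.18% and 6.52%, capillary at 6.92% and 6.00%, tip-like at 6.24% and 6.73% and immature angiogenic at 7.39% and 5.85%. The artery core was thus at the low end and the other 4 were close to each other in this count. Among cells positive for a single core the other 4 spread apart, with log2 ratios of their cycling share over that of all gate cells from -0.24 for venule to 0.72 for immature angiogenic in KPC and from -0.14 for immature angiogenic to 1.34 for tip-like in PyMT, and artery was the lowest at -0.39 and -0.87. How many of the 17 and 15 artery core cells are artery cells was not determined. Cells without any core had the highest share, 15.8% (12.4 to 19.7) in KPC and 11.2% (8.08 to 15.1) in PyMT.

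Correspondingly, more cycling cells than reference cells lacked every core. In KPC 19.5% of cycling cells did so against 12.2% of the depth-matched reference, and 12.5% against 6.59% without keratin-bearing cells. In PyMT it was 6.78% against 3.21%, and 4.76% against 2.43%. The UMIs of a cell are shared among its genes. Top2a, Mki67 and the S phase, G2 and M phase and chromatin and tubulin lists together held 2.38% of all UMIs of cycling cells against 0.638% in the reference in KPC, and 2.31% against 0.668% in PyMT. With these genes left out of the totals, the KPC median was -0.88 for artery genes (-0.90 with them) and -0.23 for capillary genes (-0.26 with them). The part of this sharing in the lack of cores was not tested.

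Levels followed the number of Top2a and Mki67 UMIs in part only. In bins of 0, 1, 2, 3, 4 to 5, 6 to 9 and 10 or more UMIs, G2 and M genes stood at 547, 2650.2, 4032, 5051, 5976, 7166 and 7371 CPM in KPC and at 773, 2651, 3959, 5362, 6151, 7274 and 7908 in PyMT. Artery genes were lower at 1 UMI than at 0 in both libraries and followed no even course beyond it, with 1132, 469, 498, 369, 365, 365 and 310.1 CPM over the same bins in KPC and 641, 367, 591, 327, 382, 434 and 361 in PyMT, where the bin with 2 UMIs was close to that with 0. Median depth went up over the same bins, from 2454 to 11762 UMIs in KPC and from 3596 to 9304 in PyMT, and 23 of the 99 KPC cells in the top bin were keratin-bearing. Without keratin-bearing cells artery genes stood at 1177, 513, 562, 421, 423, 405 and 424 CPM over these bins in KPC and at 628, 351, 544, 315, 344, 296 and 337 in PyMT, so the last step down in KPC was not seen without them. These levels are sums over the list. In PyMT Mgp held 1114 of the 3485 artery UMIs of cycling cells and 1049 of 3265 in cells with 1 or 2 UMIs. In cells with 0 UMIs Gja4 had the most, with 3711 of 20681. The parts of depth and of Mgp in this course were not tested.

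Interferon response genes were lower in cycling cells of both libraries. All 10 had intervals below 0 in each, 4 in KPC and 2 in PyMT were lower by at least 1, and the medians were -0.72 and -0.63. In KPC this depended on the deepest cells. Leaving out the deepest 10% of gate cells kept only 384 of 685 cycling cells in KPC and 760 of 1166 in PyMT. The KPC median was then -0.18, and 3 of the 10 intervals lay below 0 and 1 above. In PyMT the median was -0.65 and 8 lay below 0. With all cells with 0 UMIs as reference 7 and 1 were lower by 1, and with every cell thinned 6 and 2 were. Rsad2 (viperin) stood at 15.1 against 71.7 CPM in KPC (-2.25, -2.59 to -1.92) and 40.6 against 87.8 in PyMT (-1.11, -1.30 to -0.93). Ifit1, which binds viral RNA, was at -1.63 and -1.09, and Isg15, the ubiquitin-like modifier with the most UMIs of the list, at -0.69 and -0.53. Without the deepest 10% the KPC ratios were -1.04 for Rsad2 and 0.02 for Isg15. The chemokine Cxcl10 was at 13.9 against 73.4 CPM in KPC (-2.40) and 46.7 against 67.0 in PyMT (-0.52), the widest gap between libraries in the list.

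The other endothelial programs had medians between -0.44 and -0.15, and some of their genes were not lower. Basement membrane genes had medians of -0.44 and -0.21, with Sparc, which has the most UMIs, at 3259.8 against 4452 CPM in KPC (-0.45) and 4264 against 4978 in PyMT (-0.22), and Fn1 (fibronectin) at -0.50 in KPC and 0.27 in PyMT. Genes of flow response and quiescence had medians of -0.40 and -0.31. The antiproliferative genes Btg1 and Btg2 were at -0.59 and -0.48 and at -0.79 and -0.85, whereas the shear stress factor Klf2 stood at 589 against 617 CPM in KPC (-0.07) and 490.5 against 467 in PyMT (0.07). Notch pathway genes had medians of -0.23 and -0.20, with the ligand Jag1 at -0.48 and -0.61 and the receptor Notch1 at -0.11 and -0.20. Surface and antigen presentation genes had medians of -0.15 and -0.22, with B2m at 3259 against 3716 CPM in KPC and 2724 against 3435 in PyMT. In each of these 4 lists 0 genes passed 1. These counts and medians depended on the reference. Against all cells with 0 UMIs, 4 of 8 flow and quiescence genes (median -0.94), 3 of 7 surface and antigen presentation genes (-0.73) and 1 of 7 Notch genes (-0.49) were lower by 1 in KPC, and 1, 2 and 0 in PyMT. Klf2 was then at -0.85 in KPC. With every cell thinned, 1 flow and quiescence gene in KPC and 2 in PyMT and 2 surface genes in KPC were lower by 1, and the Notch median of PyMT was 0.00, as was that of surface genes in KPC without the deepest 10%.

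The 12 genes lowest by the weaker library were Kcnj8, Tcp11l2, Gja4, Tnfrsf11b, Pgf, Hotairm1, Cxcr4, Mxd4, Kdm5b, Paqr7, Zfp516 and Gm16104. Kcnj8, the pore of an ATP-sensitive potassium channel, stood at 10.6 against 36.3 CPM in KPC (-1.77, -2.20 to -1.36) and 15.3 against 68.1 in PyMT (-2.15, -2.43 to -1.88). Its partner subunit Abcc9 was at -0.76 and -1.17. Both are on the pericyte list, of which Cspg4 had 2 UMIs in KPC cycling cells and 0 in PyMT, and Pdgfrb 3 and 34. Acta2, of the same list, had 877 and 57 UMIs. The whole list stood at 184 CPM in cycling cells and 224 in the reference of KPC and at 54.2 and 129 in PyMT, and the part of pericyte RNA in these ratios was not tested. Mxd4, a partner of Max that opposes Myc, stood at 41.8 against 99.5 CPM in KPC (-1.25) and 33.8 against 104 in PyMT (-1.62). Tnfrsf11b (osteoprotegerin) was at -1.5 and -1.75 and Kdm5b, a histone H3K4 demethylase, at -1.64 and -1.23. Of the 28 genes lower in both libraries, 7 are on any list used here.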

How the data were processed

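Blood endothelial cells sorted from KPC and PyMT tumors were measured in 2 libraries, 1 per model. The authors aligned reads to mm10 with Cell Ranger 3.0 (3.0.2 in the matrix headers) and deposited UMI counts per gene and barcode, whole numbers without normalization. The methods name different kit versions in different places. 31055 features were read, and 36 symbols that several identifiers share were summed.

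Cells, reference, thinning to 2000 UMIs (seed 0) and class cores are defined in the report. There was no clustering. Doublets were not removed, and leaving out the deepest 10% of gate cells stood in for this. That step kept 384 of 685 cycling cells in KPC and 760 of 1166 in PyMT. CPM have exact Poisson intervals, log2 ratios exact conditional binomial intervals and shares Clopper-Pearson intervals. "Past 1" means a log2 ratio of at least 1 in size among genes with at least 50 UMIs, without the 10 rule genes. With 1 library per model no test was run. The computation of ratios and their intervals was checked on simulated Poisson sums. These have no spread between cells, so the check cannot tell how well the intervals hold for UMIs that cluster in single cells.

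The cells and the 27 gene lists were chosen with earlier results of these data known. Named genes are list members (those with the most UMIs or the largest ratio in the weaker library, and those that go in opposite directions in the libraries) and the 12 highest and 12 lowest genes by the weaker library; a few list members of known function were added after their values were seen. Positions are those of GENCODE M21 on GRCm38, and promoters those of RefSeq. Python 3.11.15, numpy 2.4.6, scipy 1.17.1, pandas 2.3.3 and matplotlib 3.10.9 were used. A gene of the S phase list is counted in its totals but not reported here by name.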

Additional observations from a re-analysis of the deposited data

Results flagged for a closer look

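For 17 list genes the log2 ratio of cycling cells over the depth-matched reference had intervals on opposite sides of 0 in the 2 libraries. The difference itself was not tested, since there is 1 library per model. It also depended on the reference: against all cells with 0 UMIs, 8 of the 17 still had opposite signs (Apln, Car4, Fn1, Hbb-bs, Hbb-bt, Lyz2, Phlda3 and Tek), while Fabp4 was at -0.51 and -0.81 and Cd36 at -1.67 and -0.35. Among vessel genes the ratios in KPC and PyMT were -0.47 and 0.34 for Apln (apelin), -0.60 and 0.40 for Car4, -0.28 and 0.12 for the fatty acid translocase Cd36, and 0.23 and -0.40 for Fabp4. For the endoglin gene Eng they were -0.10 and 0.22, for the angiopoietin receptor Tek -0.23 and 0.31, for the adhesion molecule Vcam1 -0.33 and 0.30, for Fn1 -0.50 and 0.27 and for the surface antigen Ly6a -0.16 and 0.06. In KPC the ratio of Vcam1 was 0.37 without keratin-bearing cells. For the glycolysis genes Eno1 and Gapdh they were -0.11 and 0.16, and -0.06 and 0.08, and for the p53 target Phlda3 0.23 and -0.19.

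Hemoglobin genes and Lyz2, a lysozyme of myeloid cells, gave the largest gaps. The ratios in KPC and PyMT were -6.57 and 0.81 for Hba-a1, -6.01 and 0.81 for Hba-a2, -7.92 and 1.62 for Hbb-bs, -7.44 and 2.84 for Hbb-bt, and -2.36 and 4.81 for Lyz2. Single cells carried much of this in PyMT: 298 of the 337 Hbb-bs UMIs and 85 of the 89 Lyz2 UMIs of cycling cells lay in 1 cell each. In KPC the reference held 225 CPM of hemoglobin genes and the cycling cells 1.64. Any hemoglobin UMI was seen in 1.31% of these reference cells and 0.876% of the cycling cells, so the KPC ratios also rest on few cells.

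Outside the blood endothelial gate, 330 KPC and 163 PyMT barcodes that passed the filter also had at least 3 UMIs of Top2a and Mki67, of 2387 and 1392 outside it. Of these, 139 and 61 were keratin-bearing.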

How the results depend on the processing

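Of the 394 values of gene counts, list medians, shares and share ratios under alternatives, 288 were labeled the same and 106 moved. The 106 are given here. Gene counts and list medians have no interval of their own, so for them the label is a set tolerance and not an error. For instance, the 613 genes higher in KPC with a minimum of 20 UMIs were labeled the same as the 478 with 50. Counts of genes are past 1 and the share is that of cycling cells in the gate. The causes were not tested unless stated. No paired analysis was possible because each model has 1 library and no test was run.

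With all cells with 0 UMIs as reference, 743 genes were higher and 758 lower in KPC, with medians of 2.14 for S phase, 4.22 for G2 and M, -0.88 for venule, -2.02 for artery, -1.18 for capillary and -0.26 for immature angiogenic lists. In PyMT 293 genes were lower, with -0.45 for venule, -1.19 for artery, -0.66 for capillary and -0.48 for immature angiogenic. With every cell thinned to 2000 UMIs the share was 3.87% in KPC and 2.77% in PyMT. In KPC 480 genes were lower, with 2.48 for S phase, 4.44 for G2 and M, -0.86 for venule, -1.61 for artery, -0.77 for capillary and -0.23 for immature angiogenic. In PyMT 283 were lower, with 1.88 for S phase, -0.40 for venule, -0.52 for capillary and -0.50 for immature angiogenic.

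With a stricter filter on barcodes (1000 genes, 5% mitochondrial) the share was 13.3% in KPC and 12.2% in PyMT. Without the deepest 10% it was 5.92% and 8.16%. The KPC medians were then 2.37 for S phase, 4.35 for G2 and M and -0.68 for immature angiogenic, and those of PyMT 1.93 for S phase, 3.76 for G2 and M and -1.23 for artery. A threshold of 2 UMIs gave shares of 11.8% and 14.9%, one of 5 UMIs gave 5.77% and 6.60% and a venule median of 0.08 in KPC, and Top2a alone gave 11.9% in PyMT. Mki67 alone gave 5.39% and 6.46%, with 1.48 for S phase in KPC and -0.45 for artery and -0.46 for immature angiogenic in PyMT.

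With a minimum of 20 UMIs per gene 284 genes were lower in KPC and 209 in PyMT. With none, 1025 were higher and 912 lower in KPC, 989 and 738 in PyMT, and the capillary median of PyMT was -0.10. Without keratin-bearing cells, chosen after seeing the data, the KPC share was 8.81% and its venule median 0.13, and without lymphatic-bearing cells as well 8.77% and 0.16.

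The log2 ratio of core shares in cycling over all cells with 0 UMIs moved as follows. With 1 core UMI it was -0.22 for venule in KPC, and -0.81 for artery and -0.07 for capillary in PyMT. With 3 it was -0.68 for venule, -0.80 for capillary, -0.53 for tip-like and -0.43 for immature angiogenic in KPC, and -0.36 for venule and -0.30 for capillary in PyMT. Among cells with a single core it was -0.05 for venule, -1.0 for artery, 0.17 for capillary, 0.92 for tip-like and 1.04 for immature angiogenic in KPC, and -0.78 for artery, 0.22 for capillary, 1.59 for tip-like and 0.51 for immature angiogenic in PyMT. At 1500 UMIs it was -0.69 for capillary in KPC and -0.33 for venule in PyMT. Without thinning it was 0.38 for venule, -0.58 for artery, 0.00 for capillary, 0.69 for tip-like and 0.92 for immature angiogenic in KPC, and 0.20, -0.56, 0.09, 0.74 and 0.24 in PyMT. The artery core was below 0 in both libraries in each of these settings. Without thinning the other 4 cores were above 0, other than capillary in KPC at 0.00, and the deeper cycling cells then have more UMIs to be positive with. Among cells with a single core, capillary, tip-like and immature angiogenic cores were above 0 in both libraries, and venule was below 0 in both.

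The log2 ratio of the cycling share in core cells over that of all gate cells moved for capillary in KPC, to -0.49 with 3 core UMIs and -0.61 at 1500 UMIs. Among cells with a single core it was -0.39 for artery, 0.49 for capillary, 0.13 for tip-like and 0.72 for immature angiogenic in KPC, and 0.23 for venule, -0.87 for artery, 0.41 for capillary and 1.34 for tip-like in PyMT. Without thinning it was 0.30 for venule, -0.38 for artery, 0.58 for tip-like and 0.72 for immature angiogenic in KPC, and -0.43 for artery, 0.53 for tip-like and 0.17 for immature angiogenic in PyMT.

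Among single genes 5399 values stayed within their error, 1118 moved and 3 with a ratio past 1 turned in sign, all in PyMT: Hbb-bs was at -0.43 with a threshold of 2 UMIs, and Lyz2 at -0.04 with 5 UMIs and -0.61 with Mki67 alone. Genes under 50 UMIs, such as Gja5 in KPC, were not compared at this depth.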
